A study of Mus musculus with 6 samples.

Results

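Among neural embryoid bodies made from mouse embryonic stem cells, 273 of 16225 kept cells, 1.68%, carried messages of mesoderm or mesenchyme. They are described here as mesoderm or mesenchyme-like cells and were chosen from their counts: a cell was taken when it held at least 1 UMI (unique molecular identifier, 1 counted RNA molecule) of 3 or more of the 7 genes Col3a1, Foxc2, Foxc1, Twist1, Meox1, Prrx1 and Pdgfra. Kept cells had at least 1000 detected genes and at most 10% of UMIs from mitochondrial genes. The other 15952 kept cells serve as the comparison.

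The cells came from HB9::GFP mouse embryonic stem cells, which carry a fluorescent reporter driven by a motor neuron promoter, taken at day 6 of differentiation toward motor neurons and profiled by droplet-based 3' RNA sequencing. The genotypes were wild type (WT), lncMN2_SP-/- (named DeltaSP) and lncMN2-/- (named KO), the latter pair made with CRISPR/Cas9 at the lncMN2 locus. The labels do not spell out what SP stands for. There were 6 libraries, 2 per genotype, each of 1 clone. The p-values below therefore reflect variation from library to library, and clone and library preparation cannot be told apart. All groups share the parental line, the reporter and the differentiation protocol.

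Mesenchyme is loose embryonic tissue whose cells lack epithelial contacts and secrete collagens and other matrix. Most of it in the trunk comes from mesoderm: paraxial mesoderm forms somites and uses factors such as Meox1, Foxc1 and Foxc2, while lateral plate mesoderm forms the wall of gut and body and uses Foxf1, a target of hedgehog signalling. Twist1 and Prrx1 are transcription factors of mesenchyme, Pdgfra is a growth factor receptor of its progenitors, and Col3a1 encodes a fibrillar collagen.

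WT 1 was far shallower than the rest: its kept cells held 4157 UMIs at the median and those of the remaining 5 libraries 11899 to 15112. Its 15 members held 93154 UMIs in all, so that 1 UMI of a gene equalled 10.7 CPM (counts of the gene per 1000000 UMIs of the summed cells) and 3 UMIs 32.2 CPM. The other libraries held 400980 to 1798972 member UMIs. Members had median UMI counts of 5528 to 23268 per library and median mitochondrial shares of 3.51% to 5.60%, against 3.22% to 4.97% in other cells. Any pair of libraries shared 3 to 11 of the deposited barcodes and at most 1 member barcode. No doublet caller was run, and 45 members (16.5%) held over 2 times the median UMIs of their library, against 7.24% of kept cells.

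The number of rule genes with a UMI shows where the threshold lies. Of the kept cells, 14462 held none of the 7, 1280 held 1, 210 held 2, 99 held 3, and 174 held 4 or more. Just outside the threshold, cells with 2 rule genes had a median of 6 UMIs over the mesenchyme genes of a list that leaves out the rule genes, against 7.5 UMIs over a list of neural genes. Just inside, cells with 3 rule genes had medians of 9 and 5 UMIs, and cells with 4 or more had 19 and 4. Mesenchyme UMIs outnumbered neural UMIs in 39.0% of the cells with 2 rule genes, 72.7% of those with 3 and 89.1% of those with 4 or more.

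The rule genes themselves chose the cells, so their levels are given as a description. Col3a1 stood at 419 and 406 CPM in members of WT 1 and WT 2, at 285 and 158 CPM in DeltaSP 1 and DeltaSP 2, and at 175 and 127 CPM in KO 1 and KO 2. Its values were highest in the WT libraries and lowest in KO 2, with KO 1 between the DeltaSP libraries. Foxc2 ran from 106 to 147 CPM, Foxc1 from 55.7 to 140 CPM, Twist1 from 120 to 258 CPM and Meox1 from 101 to 197 CPM. Prrx1 (17.8 to 42.9 CPM) and Pdgfra (15.0 to 32.6 CPM) rested on 3 to 41 UMIs per library.

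**Figure D1:**
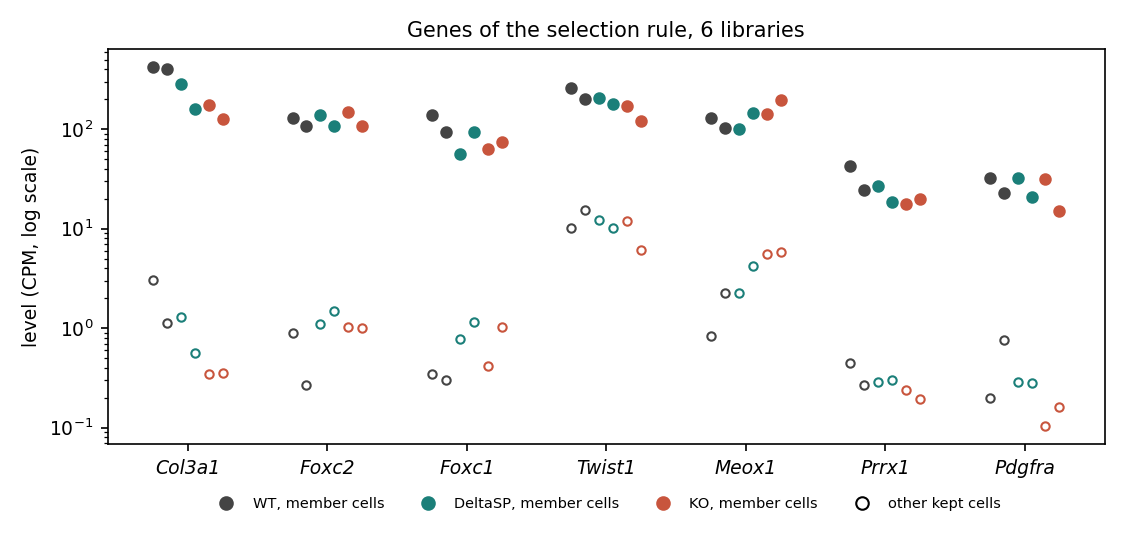
Level of the 7 rule genes in each library (CPM, log axis), with filled points for member cells, open points for other kept cells and colour for genotype. Members lie far above other cells for each gene because these genes chose them; Twist1 has the highest level in other cells, 6.12 to 15.5 CPM.

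Most rule genes were rarely detected outside the members, but Twist1 was not: it had a UMI in 86.4% of members, 6.38% of other kept cells and 8.53% of 5019 cells with neuronal markers (a UMI in each of Tubb3, Stmn2, Elavl3 and Elavl4). Col3a1 had a UMI in 64.8% of members, 0.414% of other cells and 0.219% of the neuronal-marker cells. Prrx1 and Pdgfra were each seen in 28.6% of members and in 0.295% and 0.207% of other cells. Among the neuronal-marker cells, whose median depth was 4788 to 19268 UMIs per library, 8 were members.

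The label was checked against gene lists outside the rule. Genes were counted only at a mean of 20 CPM or more, and the background is that 8.15% of 6576 such genes stood higher in members of all 6 libraries than in other cells of any library. The 7 rule genes chose the cells from the same counts, so these numbers of genes describe the cells and are not tests. The mesenchyme list without rule genes had 11 of 14 genes above every other-cell library, and its summed level was 828 to 1576 CPM in members against 95.7 to 148 CPM in other cells. Of 17 neural genes at this level in other cells, 14 were lower in members of all 6 libraries, against a background of 10.4% of 6673 genes. The motor neuron list summed to 9.98 to 75.1 CPM in members and 658 to 894 CPM in other cells, and all 7 of its counted genes were lower. By these lists the label held for most members.

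It did not hold for all of them. Neural-list UMIs outnumbered mesenchyme-list UMIs in 43 members, mesenchyme-list UMIs were the more numerous in 227, and 3 had as many of each. The 43 were spread over the libraries, with 1 and 3 in WT, 12 and 13 in DeltaSP, and 10 and 4 in KO. They were deeper, with a median of 25656 UMIs against 16769 in the other 230, and 48.8% of them lay over 2 times the median of their library, against 10.4% of the others. Pooled over libraries, they had 474 CPM of Fabp7 against 40.4 CPM, 224 CPM of Sox2 against 48.7 CPM, 198 CPM of Stmn2 against 24.1 CPM, and 25.9 CPM of Dcn against 213 CPM. Fabp7 and Sox2 are neural progenitor genes and Stmn2 a neuronal gene. The part of 2 cells in 1 droplet in these profiles was not tested. Results below name several of the calls that were lost without these 43, but not all of them.

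Lists of single mesodermal fates were mixed. The paraxial and somite list summed to 450 to 788 CPM in members against 76.3 to 154 CPM in other cells, and 4 of its 6 counted genes stood above every other-cell library, among them the rule genes Meox1, Foxc1 and Foxc2. Another 8 of its 20 genes, Tbx6, Msgn1, Mesp1, Mesp2, Pax3, Ripply1, Ripply2 and Hes7 of early somite formation, averaged under 1 CPM in members. The lateral plate and heart list had 3 of 4 counted genes above, Foxf1 among them, while 4 of its 15, the heart field genes Hand1, Gata4, Gata5 and Tbx5, averaged under 1 CPM. So did the muscle genes Pax7, Myf5, Myf6, Myod1 and Myog and the cartilage and tendon genes Pax1, Nkx3-2, Acan, Comp and Scx. The muscle list as a whole was higher in members, at 21.5 to 247 CPM against 12.7 to 18.9 CPM in other cells. Of its 3 counted genes 1 stood above every other-cell library. Endothelial genes summed to 25.8 to 43.4 CPM in members and 21.4 to 37.2 CPM in other cells, and Kdr, Flt1, Pecam1, Cdh5 and Tek averaged under 1 CPM. Neural crest, another source of mesenchyme, summed to 75.1 to 142 CPM against 80.4 to 136 CPM, and its defining genes Sox10, Foxd3, Tfap2b and Erbb3 averaged under 1 CPM. Blood genes summed to 0 to 7.78 CPM and endoderm genes to 10.7 to 56.2 CPM, both within or below the range of other cells except in the highest endoderm library.

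**Figure D2:**
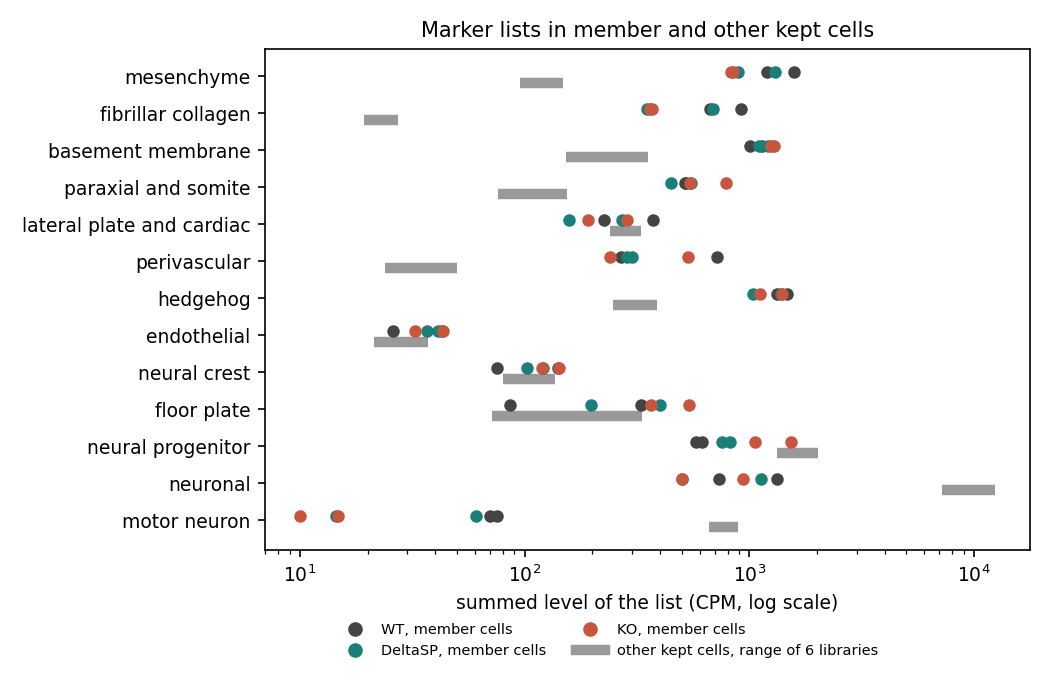
Summed level of 13 marker lists in each library (CPM, log axis), with a point per library of member cells coloured by genotype and a grey bar for the range over 6 libraries of other kept cells. Members lie above the bar for mesenchyme, fibrillar collagen, basement membrane, perivascular and hedgehog genes, below it for neuronal and motor neuron genes, and partly on it for endothelial genes (25.8 to 43.4 against 21.4 to 37.2 CPM) and neural crest genes (75.1 to 142 against 80.4 to 136 CPM).

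Genes of matrix and transcription factors stood among those that set the members apart most. Of the 20 genes with the largest ratio of mean level, taken among 2497 genes of at least 50 CPM in members of every library, several encode matrix proteins: Tgfbi, an adhesion protein of the matrix, the collagens Col26a1 and Col1a2, Ecm1, Emilin1, Pcolce, an enhancer of procollagen processing, and the fibrillin Fbn2. Tgfbi had the largest ratio, with 188 to 294 CPM in members and a median of 3.14 CPM in other cells, a ratio of 84.3. All 20 were higher in members in 6 of 6 libraries, down to a ratio of 9.41 for Nfib. Fibrillar collagens stood above every other-cell library in 6 of 6 counted genes, among them the rule gene Col3a1, and Col1a1 stood at 49.3 to 147 CPM in members against 0.447 to 1.58 CPM. Sparc, a matrix protein that binds collagen, was at 451 to 638 CPM against 39.9 to 115 CPM, and Serpinh1, the collagen chaperone, at 483 to 1040 CPM against 107 to 257 CPM.

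Transcription factors of mesenchyme formed another group among the 20. Foxd1, a factor of stromal progenitors in several organs, was at 344 to 569 CPM in members and 9.0 to 17.1 CPM in other cells. It was detected in 86.4% of members and 9.41% of other cells. Hic1 (ratio 70.8), Heyl, a Notch target (39.6), Prrx2, a paralogue of Prrx1 (16.6), and Maf (11.6) were also among the 20.

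Signalling genes of several pathways were high in members. Cxcl12, a chemokine of stromal cells, was at 297 to 775 CPM against 19.2 to 44.4 CPM, and Aldh1a2, the enzyme that makes retinoic acid in the trunk mesoderm, at 53.3 to 269 CPM against 3.68 to 11.8 CPM. Of 9 counted hedgehog genes, 6 stood above every other-cell library: the hedgehog co-receptor Gas1 was at 120 to 361 CPM against 23.0 to 43.3 CPM, and Hhip, a hedgehog-binding target gene, at 27.4 to 111 CPM against 5.04 to 7.18 CPM. Ptch1, the hedgehog receptor and a target gene, overlapped, at 142 to 263 CPM against 93.2 to 156 CPM. Foxf1 was at 42.9 to 231 CPM against 0.585 to 2.15 CPM, the receptor Pdgfrb at 40.4 to 129 CPM against 0.379 to 1.29 CPM, and Id3, a target of BMP signalling, at 764 to 983 CPM against 178 to 453 CPM.

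Imprinted genes, which are transcribed mainly from the copy inherited from 1 parent and many of which act in fetal growth, were mixed. Of 21 counted, 6 stood above every other-cell library. H19, a growth-restraining non-coding RNA on chromosome 7 (142575529 to 142578143, minus strand, mm10), was at 633 to 3693 CPM in members against 18.9 to 128 CPM. Peg3 was at 479 to 1202 CPM against 80.1 to 169 CPM. Cell cycle genes were close to the other cells, with 5 of 40 S phase and 3 of 50 G2 and M phase genes above every other-cell library. Hox genes, which record position along the body axis, had 0 of 17 above and 3 of 17 below.

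Within the members, the paraxial factor Meox1 and the lateral plate factor Foxf1 divided the cells in part; this division was chosen after the values were seen. Meox1 had a UMI in 156 members and Foxf1 in 121: 95 held Meox1 alone, 60 Foxf1 alone, 61 both and 57 neither. The median depths of these 4 groups were 16799, 19181, 17801 and 15300 UMIs. Cells with Meox1 alone numbered 8 and 5 in WT, 11 and 37 in DeltaSP, and 22 and 12 in KO, and cells with Foxf1 alone 2 and 10, 20 and 16, and 10 and 2.

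The rule bears on this division, because Meox1 and Col3a1 are both rule genes: a member without Meox1 had to hold 3 of the other 6, and one with Meox1 only 2 more. Of members with Col3a1, 45.8% held Meox1, against 78.1% of those without it, so the Col3a1 values below are in part set by the choice of cells; the part of the rule in the other matrix genes was not tested. Cells with Foxf1 alone carried more of several matrix messages when pooled over libraries. Dcn, which encodes the collagen-binding proteoglycan decorin, was at 491 CPM in them and 37.0 CPM in cells with Meox1 alone. It was higher on the Foxf1 side in 5 of 6 libraries. Col1a1 (145 against 37.6 CPM), Col3a1 (392 against 112 CPM), the mesenchymal cadherin Cdh11 (124 against 42.1 CPM), the microfibril gene Mfap4 (133 against 54.4 CPM) and Gli1, a hedgehog target and effector (36.1 against 9.54 CPM), were also higher there in 5 of 6 libraries. Lum, a proteoglycan related to decorin, was higher in 3 of 6. These counts take equal levels as not higher, and KO 2 members held 0 Lum UMIs. Other matrix genes were lower with Foxf1 alone, among them Nid2 (19.7 against 52.7 CPM), Col4a2 (28.7 against 53.3 CPM) and Sparc (482 against 581 CPM). These were higher on the Foxf1 side in 0, 1 and 2 of 6 libraries. The neuronal genes Nefm and Tubb3 were higher there in 5 of 6, and no share over all genes was computed.

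On the Meox1 side stood Wt1, a factor of kidney and coelomic lining, at 35.3 CPM against 8.21 CPM in cells with Foxf1 alone. It was higher on the Foxf1 side in 0 of 6 libraries, a count that takes equal levels, also 0 on both sides, as not higher. Its levels rest on 63 and 10 UMIs. The floor plate genes Shh (78.0 against 0.821 CPM) and Foxa2 (28.6 against 4.10 CPM) were also on the Meox1 side. Shh, the hedgehog ligand, had a UMI in 19 members, 12 of them among the 43 cells with more neural than mesenchyme UMIs. H19 was nearly even, at 2753 CPM with Meox1 alone and 2555 CPM with Foxf1 alone, as were Foxd1 at 405 and 465 CPM and Foxc2 at 105 and 117 CPM.

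**Figure D3:**
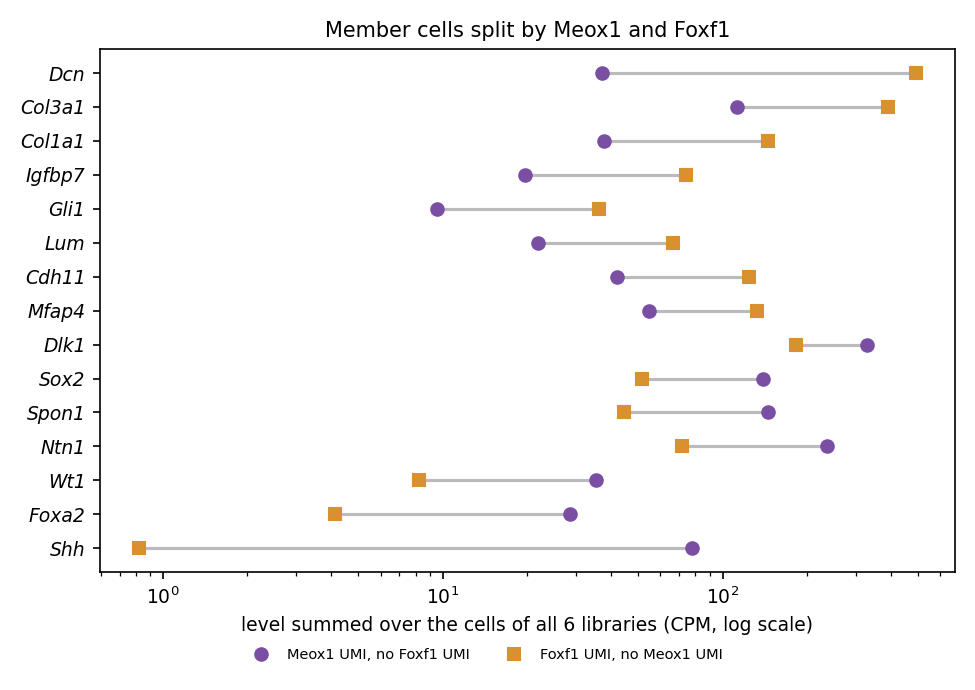
Level of 15 genes (CPM, log axis) in members with a Meox1 UMI and no Foxf1 UMI (circles, 95 cells) and in members with a Foxf1 UMI and no Meox1 UMI (squares, 60 cells), pooled over 6 libraries. Dcn lies furthest to the Foxf1 side at 491 against 37.0 CPM, and Shh furthest to the Meox1 side at 78.0 against 0.821 CPM.

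The share of kept cells that were members was 0.3334% in WT 1 (15 of 4499; 95% Wilson interval 0.202% to 0.549%) and 1.61% in WT 2 (26 of 1612; 1.10% to 2.35%). In DeltaSP 1 it was 2.58% (59 of 2283; 2.01% to 3.32%) and in DeltaSP 2 it was 2.64% (95 of 3602; 2.16% to 3.21%). KO 1 had 2.58% (55 of 2129; 1.99% to 3.35%) and KO 2 had 1.10% (23 of 2100; 0.731% to 1.64%). The DeltaSP libraries were alike and above both WT libraries, whereas the KO libraries lay apart and overlapped with WT. These intervals cover counting error only.

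WT libraries averaged 0.973% ± 0.905, DeltaSP libraries 2.61% ± 0.0376 and KO libraries 1.84% ± 1.05 (SD, n = 2 libraries each). Two-sided exact permutation tests over libraries cannot go below p = 0.33 at this size. The exact permutation p was 0.33 for DeltaSP minus WT (1.64 percentage points), 0.667 for KO minus WT (0.866 points) and 0.33 for KO minus DeltaSP (-0.772 points). The rule needs UMIs of 3 genes and so depends on depth. With each cell thinned to 3000 UMIs, the shares were 0.196% and 0.265% in WT, 0.596% and 0.676% in DeltaSP and 0.627% and 0.350% in KO. Then WT 1 and WT 2 lay close together and below the other 4 libraries, on 4 to 23 members each, and 56 to 936 cells per library under 3000 UMIs were left out.

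**Figure D4:**
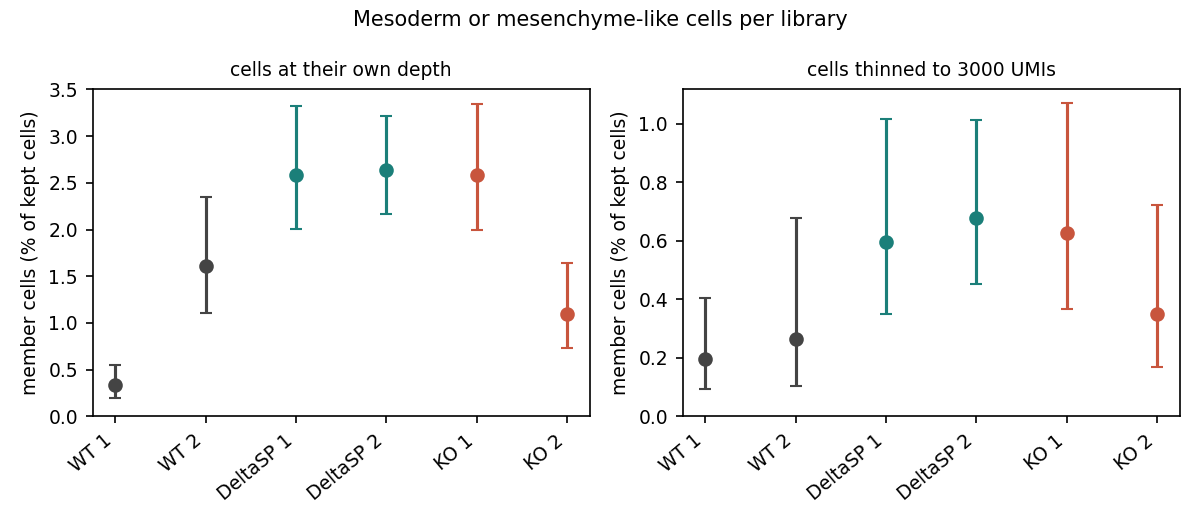
Share of kept cells that were mesoderm or mesenchyme-like in each library (percent, points with 95% Wilson intervals as bars), at the depth of the files and with each cell thinned to 3000 UMIs. DeltaSP is above WT in both panels, and WT 1 moves from far below WT 2 to near it after thinning.

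The edited transcript was checked next. The lncMN2 transcript, listed as 5330434G04Rik (lincRNA, chromosome X, 105348282 to 105391776, minus strand, mm10), had 0 and 8 UMIs in WT members, 12 and 14 in DeltaSP members, and 0 and 0 in KO members. In other cells it stood at 32.7 and 34.0 CPM in WT, 23.9 and 22.8 CPM in DeltaSP, and 0.138 and 0.193 CPM in KO. The KO libraries were near 0 and the DeltaSP libraries kept the transcript. In WT 1 members the 0 allows up to 32.2 CPM and is not informative.

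Expression in members was compared between genotypes on UMIs summed per library. In such sums, fewer cells of a kind and less RNA per cell cannot be told apart. Changes are log2 fold changes ± SE from edgeR's quasi-likelihood test, and genes passed at a Benjamini-Hochberg adjusted p under 0.05 over 8726 tested genes. KO and DeltaSP were each compared with the same WT libraries.

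In KO members, Cdkn1c and the matrix and adhesion genes Dcn, Igfbp7, Cdh11 and Mfap4 fell, and H19 and 2 of 9 neural progenitor genes rose. Of the 8726 genes, 240 passed against WT (2.75%): 18 rose (0.206%) and 222 fell (2.54%). KO and WT libraries did not overlap at 47.1% of the tested genes. The median over all tested genes was 0.05. Cdkn1c, an imprinted gene whose product blocks cyclin-dependent kinases (chromosome 7, 143458339 to 143461050, minus strand, mm10), was at 172 and 456 CPM in WT members, 50.9 and 26.7 CPM in DeltaSP members and 28.6 and 52.4 CPM in KO members. WT lay apart above the other 4 libraries. It fell by 3.47 ± 0.37 in KO (edgeR adjusted p = 4.48e-05). Other cells showed the same order, with 239 and 256 CPM in WT and 27.5 to 38.3 CPM in DeltaSP and KO.

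Matrix and adhesion genes included several falls. Dcn stood at 140 and 524 CPM in WT, 217 and 101 CPM in DeltaSP and 61.2 and 17.5 CPM in KO. The KO libraries lay below all 4 others, and Dcn fell by 3.27 ± 0.46 against WT (edgeR adjusted p = 0.000389). Igfbp7, a secreted binding protein of growth factors, fell from 64.4 and 152 CPM to 28.6 and 4.99 CPM (-2.81 ± 0.44, adjusted p = 0.000963). Cdh11 fell from 172 and 143 CPM to 57.2 and 37.4 CPM (-1.73 ± 0.33, adjusted p = 0.00368), and Mfap4 from 140 and 143 CPM to 64.1 and 64.8 CPM (-1.30 ± 0.29, adjusted p = 0.0147). Without the 43 cells with more neural UMIs, Mfap4 was at -1.04 and did not pass (adjusted p = 0.111). Neither Dcn nor Mfap4 passed in the Wald test of DESeq2. These 4 genes were also higher, pooled over libraries, in members with Foxf1 alone than in those with Meox1 alone. Cells with Foxf1 alone made up 2 of 15 and 10 of 26 members in WT and 10 of 55 and 2 of 23 in KO, and the part of this makeup in the falls was not tested.

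As groups, 2 of 15 tested genes of the mesenchyme list without rule genes fell in KO, Dcn and Mfap4, with a median of -0.60. None of 6 fibrillar collagens passed (median -0.67, all 6 below 0), and Col1a1 was at -0.60 (edgeR adjusted p = 0.634). None of 11 basement membrane genes passed (median 0.01). Of 11 hedgehog genes 1 fell, Foxf2, a forkhead factor of mesenchyme (-2.59 ± 0.64, edgeR adjusted p = 0.0277), with a median of -0.63 over the list. Foxf2 rested on 1 and 23 UMIs in WT members and 7 and 1 in KO members. It lost its call in the Wald test of DESeq2, with a replicate block and with 4 of 7 rule genes. Hhip (-1.30, adjusted p = 0.0514) and Gas1 (1.0, adjusted p = 0.0761) did not pass. None of 4 tested paraxial genes, 44 S phase genes or 52 G2 and M phase genes passed (medians 0.68, -0.05 and 0.08). Among the rule's companions at high level, Foxd1 (-0.63, adjusted p = 0.235), Cxcl12 (-0.91, adjusted p = 0.107) and Tgfbi (0.29, adjusted p = 0.735) did not pass.

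H19 was at 633 and 1371 CPM in WT members, 2758 and 2466 CPM in DeltaSP members and 3352 and 3693 CPM in KO members. WT was lowest and KO highest, with no overlap. H19 rose by 1.59 ± 0.30 in KO (edgeR adjusted p = 0.00385), and a UMI was present in 9 of 15 and 18 of 26 WT members against 55 of 55 and 22 of 23 KO members. Of 23 imprinted genes tested, H19 rose and Cdkn1c fell, and the median was 0.09. Mest, an imprinted gene at 870 and 1983 CPM in WT and 3139 and 3222 CPM in KO, did not pass (0.94, adjusted p = 0.141).

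Neural genes moved in both directions in KO members. Fabp7, a lipid-binding protein of neural progenitors, was at 53.7 and 33.4 CPM in WT, 167 and 100 CPM in DeltaSP and 199 and 317 CPM in KO, a rise of 2.60 ± 0.37 in KO (edgeR adjusted p = 0.000409). Sox2, at 21.5 and 39.5 CPM in WT and 121 and 157 CPM in KO, rose by 1.72 ± 0.32 (adjusted p = 0.00319). These were 2 of 9 neural progenitor genes tested, whose median was 1.52. Ntn1, a guidance molecule of the floor plate, rose by 1.42 ± 0.33 (adjusted p = 0.0186). In KO 2, 95 of 127 Fabp7 UMIs came from 1 cell, and the level without it was 86.4 CPM. Without the 43 cells with more neural UMIs, Fabp7 was at 0.85 (adjusted p = 0.486) and Sox2 at 0.98 (adjusted p = 0.391), and neither passed; nor did Ntn1 (0.89, adjusted p = 0.126). The same 3 genes did not pass without members over 2 times the median depth (Fabp7 0.11, Sox2 0.80, Ntn1 0.84; adjusted p = 0.963, 0.489 and 0.284).

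Of 12 neuronal genes, 2 passed lower in KO members: Stmn2 (-2.19, edgeR adjusted p = 0.0159) and Tubb3 (-1.53, adjusted p = 0.0247), with a median of -1.42 over the list. In WT 2, 1 cell held 111 of 128 Stmn2 UMIs and 1 cell 98 of 138 Tubb3 UMIs. Neither passed without the 43 cells with more neural UMIs (Stmn2 -0.88, adjusted p = 0.603; Tubb3 -0.78, adjusted p = 0.442) or without members over 2 times the median depth (both -0.22, adjusted p = 0.946 and 0.879). Isl1, a factor of motor neurons and of heart mesoderm, fell by 4.37 ± 0.88 (edgeR adjusted p = 0.00581) on 21 UMIs in WT and 2 in KO. In WT 2, 16 of its 17 UMIs came from 1 cell. Pooled over libraries, 35 of its UMIs lay in the 43 cells with more neural UMIs and 11 in the other 230 members. Other rises were Tm4sf1, a membrane protein of the tetraspanin-like family (4.66 ± 0.89, adjusted p = 0.00396), and Rtp4, an interferon-induced gene (4.21 ± 0.87, adjusted p = 0.00803). Without members over 2 times the median depth, Rtp4 did not pass (2.93, adjusted p = 0.479). Their WT levels rest on 3 and 1 UMIs; the ratio of pooled KO to WT levels was 26.6 for Tm4sf1 (95% counting interval 8.92 to 130) and 21.8 for Rtp4 (3.70 to 881). Junb and Egr1, immediate early factors, fell by 2.03 and 0.96 (adjusted p = 0.00396 and 0.0383), as 2 of 11 such genes; without the 43 cells neither passed (-1.19, adjusted p = 0.31, and -0.57, adjusted p = 0.482). Ifitm2 was the only one of 13 tested interferon genes to pass, and it fell by 1.62 ± 0.31 (edgeR adjusted p = 0.00451). The list leaned the other way, with 10 of the 13 above 0 and a median of 0.77. Hotairm1, a non-coding RNA of the HoxA cluster, fell by 1.73 ± 0.29 (adjusted p = 0.00153), 1 of 2 falls among 19 Hox cluster genes.

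Many of the 222 falls were of short housekeeping transcripts, in lists chosen after the data were seen. Of 82 ribosomal protein genes 41 fell (median over the 82, -1.05), and of 87 nuclear genes of the respiratory chain 37 fell (median -0.71). The falls had a median transcript length of 1106 bases against 3396 bases for all tested genes with a length. The ribosomal falls were not limited to members: the 41 genes had a median of -1.49 in members and -1.21 in other cells, and all 41 were lower in KO other cells. A difference of effects between members and other cells passed at 0 of the 41, against 0.815% of 14116 genes. That test recovered 9 of 100 genes changed 2-fold in simulated counts, so the 0 does not show equal effects. Of all 222 falls, 212 were lower in KO other cells. The share of all tested genes that were lower in KO other cells was not computed. Ribosomal protein genes took 19.7% and 18.4% of member UMIs in WT, 13.8% and 18.8% in DeltaSP, and 12.8% and 11.6% in KO.

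The KO comparison depended on the test and on the WT libraries. In the Wald test of DESeq2 164 genes passed, and 13 of 27 named genes lost their call. Among these 13 were Dcn, Mfap4, Foxf2, Ntn1, Tm4sf1, Rtp4, Stmn2 and Tubb3. Without WT 2, 10 genes passed, and of the named genes H19 alone kept its call (2.40, edgeR adjusted p = 0.0156), while Cdkn1c (-2.28, adjusted p = 0.155), Dcn (-1.66, adjusted p = 0.481) and Cdh11 (-1.83, adjusted p = 0.271) kept their direction without passing. Without WT 1, 130 genes passed and H19 was at 1.17 (adjusted p = 0.054); without KO 2, 105 passed.

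DeltaSP members differed from WT members at few genes, and imprinted growth genes were among them. Of the 8726 tested genes 11 passed (0.126%), 2 of them higher (0.0229%) and 9 lower (0.103%), and the median over all genes was 0.02. DeltaSP and WT libraries did not overlap at 39.8% of the tested genes. Dlk1, an imprinted Notch-like membrane protein of progenitors (chromosome 12, 109452823 to 109463336, plus strand, mm10), was at 172 and 881 CPM in WT members, 62.9 and 51.7 CPM in DeltaSP members and 643 and 813 CPM in KO members. DeltaSP lay below all 4 other libraries, and KO fell within the range of WT. Dlk1 fell by 3.46 ± 0.41 in DeltaSP (edgeR adjusted p = 0.000218), and in other cells it stood at 69.4 and 130 CPM in WT, 13.6 and 8.15 CPM in DeltaSP and 65.2 and 67.7 CPM in KO. Cdkn1c fell by 3.33 ± 0.33 (adjusted p = 2.73e-05). These were 2 of 23 imprinted genes tested, with a median of 0.02; H19 was at 1.26 ± 0.30 and did not pass (adjusted p = 0.127).

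Both genes that rose in DeltaSP members are interferon-induced. Ifitm3, an antiviral membrane protein, was at 150 and 106 CPM in WT, 445 and 376 CPM in DeltaSP and 170 and 170 CPM in KO. DeltaSP lay above the rest, and KO was close to WT. Ifitm3 rose by 1.75 ± 0.25 (edgeR adjusted p = 0.00246), and in other cells it ran at 82.6 to 125 CPM in WT and KO and at 313 and 282 CPM in DeltaSP. Rtp4, which is not in the interferon list, rose by 5.67 ± 0.70 (adjusted p = 0.000275) from 1 UMI in WT to 235 in DeltaSP, a ratio of pooled levels of 57.8 (10.3 to 2292). Without members over 2 times the median depth neither Ifitm3 (1.16, adjusted p = 0.339) nor Rtp4 (5.05, adjusted p = 0.155) passed. Of 13 interferon genes tested, Ifitm3 passed and 12 lay above 0, with a median of 1.86; Bst2 (1.86, adjusted p = 0.106) and Isg15 (1.67, adjusted p = 0.4) did not pass.

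Tagln, an actin-binding protein of smooth muscle, fell by 2.62 ± 0.39 in DeltaSP (edgeR adjusted p = 0.00273), as 1 of 6 perivascular genes. It was at 32.2 and 179 CPM in WT and 25.5 and 23.9 CPM in DeltaSP, and 87 of the 118 UMIs of WT 2 came from 1 cell, without which WT 2 stood at 50.4 CPM. Without members over 2 times the median depth Tagln was at -0.87 and did not pass (adjusted p = 0.56). Junb fell by 2.38 ± 0.36 (adjusted p = 0.00273), and without the 43 cells with more neural UMIs it was at -1.67 (adjusted p = 0.231). None of 6 fibrillar collagens, 15 other mesenchyme genes, 9 neural progenitor genes or 82 ribosomal protein genes passed (medians -0.37, -0.27, 1.13 and -0.30). In WT 2, 129 of 580 Dlk1 UMIs and 78 of 300 Cdkn1c UMIs came from 1 cell.

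The 11 calls rest on WT 2 as well. Without it 0 genes passed in edgeR, with 894 at an unadjusted p under 0.05, and Dlk1 was at -1.55 (adjusted p = 0.44), Cdkn1c at -2.14 (adjusted p = 0.435) and Ifitm3 at 1.49 (adjusted p = 0.397). Leaving out DeltaSP 1, DeltaSP 2, KO 1 or KO 2 raised the count to 19, 79, 37 and 22 genes.

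Between the edited genotypes, 2 of 8726 genes passed (0.0229%), 1 in each direction (0.0115% each), and the libraries did not overlap at 40.6%. Dlk1 was higher in KO than in DeltaSP by 3.56 ± 0.40 (edgeR adjusted p = 0.000221), and Ifitm3 was lower (-1.38 ± 0.22, adjusted p = 0.0142). Dlk1 kept its call under each alternative run other than the Wald test of DESeq2 (3.57, adjusted p = 0.132), within 3.40 to 4.88. Ifitm3 lost its call in the Wald test (adjusted p = 0.0888), without KO 2 (adjusted p = 0.179), without the 43 cells with more neural UMIs (-1.14, adjusted p = 0.104) and without members over 2 times the median depth (-1.62, adjusted p = 0.108). Without DeltaSP 1, DeltaSP 2 or KO 1 the count of passing genes was 132, 21 and 28.

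Whether an effect of genotype differed between members and other cells was tested directly, over 14116 genes with library as a block. For KO against WT, 115 genes passed (0.815%), 49 with the effect higher in members (0.347%) and 66 lower (0.468%). Ptn and Sfrp1 were chosen after their values were seen, as genes with opposite order in members and other cells; neither passed after thinning to 3000 UMIs. Ptn, the secreted growth factor pleiotrophin, stood at 365 and 398 CPM in WT members, 403 and 404 CPM in DeltaSP members and 518 and 848 CPM in KO members. In other cells its order was the opposite, with 130 and 177 CPM in WT, 97.8 and 80.6 CPM in DeltaSP, and 79.9 and 59.5 CPM in KO. The effect of KO was 2.07 higher in members (edgeR adjusted p = 4.38e-30).

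Sfrp1, a secreted Wnt inhibitor, had the reverse pattern. It was at 279 and 241 CPM in WT members, 204 and 155 CPM in DeltaSP members and 142 and 137 CPM in KO members, and at 45.8 and 101 CPM, 115 and 162 CPM, and 178 and 281 CPM in the other cells of the same libraries. In members it fell by 1.01 ± 0.24 in KO (edgeR adjusted p = 0.0205), and the effect of KO was lower there than in other cells (-2.04, adjusted p = 1.74e-18). Cdh11 likewise changed in members without a like change elsewhere: other cells held 35.9 and 37.3 CPM in WT and 39.0 and 42.2 CPM in KO, and the difference of effects was -1.58 (adjusted p = 9.62e-06). Dcn (-1.45, adjusted p = 0.00846) and Mfap4 (-1.29, adjusted p = 0.00773) also had effects that were lower in members, and neither passed without the 43 cells with more neural UMIs (-1.25, adjusted p = 0.0737, and -0.99, adjusted p = 0.204).

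Fabp7 had the largest of these differences among the progenitor genes, 3.17 for KO against WT (edgeR adjusted p = 3.59e-26), since other cells stood at 410 and 604 CPM in WT and 406 and 514 CPM in KO. Without the 43 cells with more neural UMIs it was 1.48 (adjusted p = 0.0744). For Cdkn1c, H19 and Ifitm3 no difference of effects passed. For DeltaSP against WT, 38 genes passed (0.269%), 17 with the effect higher in members (0.12%) and 21 lower (0.149%), with Ptn at 1.06 (adjusted p = 7.24e-07), Sfrp1 at -1.05 (adjusted p = 6.14e-05) and Cdh11 at -0.98 (adjusted p = 0.0182). Without the 43 cells Cdh11 was at -0.86 and did not pass (adjusted p = 0.15). The counts moved with single libraries: the 115 became 176 without WT 1, 61 without DeltaSP 1, 65 without DeltaSP 2 and 63 without KO 2, and the 38 became 84 and 88 without WT 1 or WT 2, and 21 and 10 without DeltaSP 1 or DeltaSP 2.

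**Figure D5:**
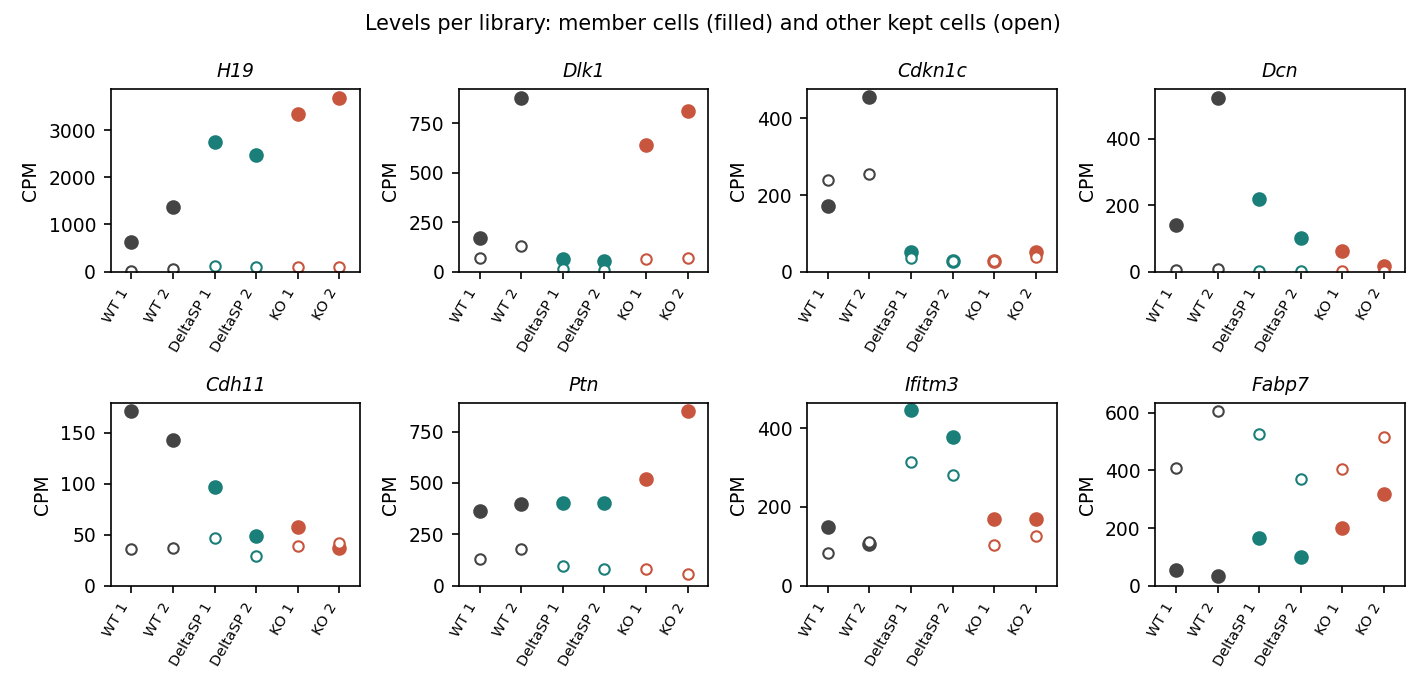
Level of H19, Dlk1, Cdkn1c, Dcn, Cdh11, Ptn, Ifitm3 and Fabp7 in each library (CPM, linear axes from 0), with filled points for member cells and open points for other kept cells of the same library. Dlk1 is low in both DeltaSP libraries (62.9 and 51.7 CPM in members), Ifitm3 is high there, and Ptn is highest in KO members and lowest in KO other cells.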

How the data were processed

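Single-cell 3' RNA libraries of 6 clones were analysed. The authors' deposited files hold UMI counts per gene and barcode, unnormalized, made with Cell Ranger 4.0 on mm10 per the submitters' processing notes; Ensembl gene names are used as deposited, and the labels give the 10x kit as more than 1 version. The smallest barcode had 500 UMIs, and libraries summed to between 24191242 and 49061693 UMIs. Barcodes needed 1000 detected genes and no more than 10% of UMIs from mitochondrial genes. No doublet caller was run. As an alternative, all kept cells above 2 times the library median (deep cells), members and other cells alike, were left out.

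Counts were summed per library over members and over other kept cells (Python 3.11.15, NumPy 2.4.6, pandas 2.3.3). Members were compared between genotypes with edgeR 4.0.16 in R 4.3.3 (TMM, filterByExpr, quasi-likelihood test, all 6 libraries in 1 fit, Benjamini-Hochberg adjustment over all tested genes, threshold 0.05). Differences of effects between members and other cells were fitted on 12 sums with library as a block. Printed CPM are plain, over the UMIs of the cells summed. Shares were compared with two-sided exact permutation tests (SciPy 1.17.1). Transcript lengths and gene positions came from the GENCODE annotation of the same build. Figures were drawn with matplotlib 3.10.9.

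By rule the text names the edited transcript and the 7 rule genes, and per comparison genes that passed without overlap of libraries, from the 8 that rose most and the 8 that fell most (mean of 20 CPM or more in the genotype with more), and from each list up to 3 genes of smallest p. Where fewer than 5 genes passed, the 5 with the smallest p could be named as not passing. Against other cells it names from the 20 genes with the largest ratio among those of at least 50 CPM in every member library, and list members of 20 CPM or more. Not every gene the rule takes is reported here. The members and lists were chosen with earlier results of these data known. Ptn, Sfrp1, the Meox1 and Foxf1 division and the ribosomal and respiratory chain lists were chosen after the values were seen.

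On simulated member counts (8700 genes tested for KO against WT), 24 of 100 genes changed 2-fold and 85 of 100 changed 4-fold were recovered with 9 false calls. For the difference of effects (13969 genes) 9 and 61 of 100 were recovered with 3 false calls. The simulation gave every gene the same spread between libraries (coefficient of variation 0.153) and no differences between clones. WT members differed more between libraries at genes such as Dlk1 and Dcn. These rates may therefore be too favourable for the real data. Alternatives were DESeq2 1.42.0 (size factors, and its Wald test), a replicate block and no filter on low counts. Cell choices were a looser filter (500 genes, 20% mitochondrial UMIs), 4 of 7 rule genes, members with more neural UMIs left out, and deep cells left out. Thinning to 3000 UMIs and leaving out each library were also run.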

Additional observations from a re-analysis of the deposited data

Results flagged for a closer look

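The effect of an edit differed between members and other kept cells, by the direct edgeR test of the difference with library as a block, at 21 of the named genes for KO against WT and 12 for DeltaSP against WT. Values are log2 effects in members minus those in other cells.

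For KO against WT, the effect was lower in members for Sfrp1 (-2.04), Tagln (-1.99), Cdh11 (-1.58), Dcn (-1.45) and Mfap4 (-1.29), and for the neuronal genes Isl1 (-3.98), Elavl2 (-2.58), Stmn2 (-1.12) and Tubb3 (-0.93). It was higher for Ptn (2.07), Dlk1 (0.98), Tm4sf1 (4.88) and Hotairm1 (1.02). Among genes of neural progenitors and floor plate, it was higher for Fabp7 (3.17), Sox2 (1.36) and Ntn1 (1.11), and the same held for Cspg5 (2.78), Kbtbd11 (2.88), Fndc5 (2.49), Lrrn1 (2.40) and Ly6h (2.59). Of the 21, 8 still passed without the 43 members with more neural UMIs, 7 without WT 2 and 1 after thinning to 3000 UMIs. Dlk1 passed under each alternative run, within 0.72 to 2.63, and Ptn and Sfrp1 under each but thinning. Ptn was at 1.10 after thinning. Without the 43 members, the 8 that passed were Sfrp1, Tagln, Cdh11, Elavl2, Ptn, Dlk1, Tm4sf1 and Lrrn1. Among those that did not pass were Sox2 (0.60), Ntn1 (0.56), Isl1 (-2.34), Ly6h (1.32), Cspg5 (1.54) and Kbtbd11 (1.85).

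For DeltaSP against WT, the effect was lower in members for Tagln (-3.55), Stmn2 (-1.17), Junb (-1.14), Sfrp1 (-1.05), Sncg (-0.99) and Cdh11 (-0.98). It was higher for Fabp7 (2.30), Kbtbd11 (2.43), Fndc5 (1.78), Ly6h (1.52), Hoxb5os (1.29) and Ptn (1.06). Of these 12, 3 still passed without the 43 members, 3 without WT 2 and 0 after thinning. Of the 118 Tagln UMIs of WT 2 members, 87 came from 1 cell.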

How the results depend on the processing

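Differences in the share of members kept their direction under every alternative run. Leaving out each library gave 0.122 to 1.61 points for KO minus WT, 0.998 to 2.28 for DeltaSP minus WT and -1.52 to -0.0275 for KO minus DeltaSP, and thinning gave 0.258, 0.406 and -0.148.

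Counts of passing genes depended more on the processing. In the DESeq2 Wald test, 164 genes passed for KO against WT, and 13 of 27 named genes lost their call. The 240 of KO against WT became 38 after thinning (666 genes tested) and 10 to 281 without single libraries. The 11 of DeltaSP against WT became 5 in the DESeq2 Wald test, 88 without the filter, 18 with 4 of 7 rule genes, 1 after thinning and 0 to 79 without single libraries. The 2 of KO against DeltaSP became 0 in the Wald test (232 at an unadjusted p under 0.05), 128 without the filter, 9 with 4 of 7 rule genes, 1 after thinning and 2 to 132 without single libraries. The 115 differences of effects for KO became 53 with 4 of 7 rule genes, 53 without the 43 members with more neural UMIs, 4 after thinning and 61 to 176 without single libraries. The 38 for DeltaSP became 18, 20 and 23 under the same settings and 10 to 88 without single libraries. A genotype left with 1 library was assumed to vary like the others. Causes were not tested, other than the fewer genes or samples that an alternative itself leaves.

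With the replicate number as a block, the counts were 247, 14 and 9. The labels give no shared source for equal numbers, and the numbers were not taken as pairs. Same-numbered libraries correlated at -0.0323, 0.0913 and -0.0504 in their deviations. With 2 libraries per genotype, these values cannot exclude a shared culture or batch. The fits of effect differences already held library as a block and were not run with the Wald test.

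Of the named fold changes and differences of effects under alternatives, 690 kept their call, 286 kept only their direction and 15 reversed. For KO against WT in members, Egr1 reversed to 0.87 after thinning. Differences of effects for KO reversed at Stmn2: 0.33 without members with more neural UMIs, 1.37 without deep cells and 0.27 without KO 1. Without single libraries Stmn2 lay within -2.29 to 0.27. Others that reversed were Tubb3 (0.77 without deep cells), Hotairm1 (-0.030 after thinning), Cspg5 (-0.32 after thinning) and Tagln (0.22 without WT 2, from -2.51). Those for DeltaSP reversed at Stmn2 (0.19 and 0.055 without neural members or deep cells), Sncg (0.98 and 1.09), Ly6h (-0.16 without deep cells), Kbtbd11 (-0.23) and Ptn (-0.13), the last pair after thinning. Depth limits WT 1 most, where 1 UMI of a member sum is 10.7 CPM.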
